A study of Mus musculus with 12 samples.

Results

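Cyclin-dependent kinase inhibitors and 2 genes of the p53 response were followed across age in the accessible chromatin of mouse bone marrow. The 8 genes were Cdkn1a, Cdkn1b, Cdkn2a, Cdkn2b, Cdkn2c, Cdkn2d, Mdm2 and Gadd45a, taken by name, with no threshold on a measured value. A peak belonged to one of them when its centre lay in the gene or within 15 kb of its ends on RefSeq positions, and a peak in reach of several members went to the nearest. This gave 38 of the 75281 peaks in the series, between 1 at Cdkn2b and 8 at Cdkn2d, and 8 of the 16935 protein-coding genes that had a peak by the same distance. All 38 peaks passed the filter on low counts.

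The libraries were ATAC-seq, in which a transposase cuts open DNA and the reads over a region measure how accessible it is. The mice were of the inbred NZO/HILtJ strain, which becomes obese and can turn diabetic, and the labels give no treatment or engineered allele. Each of 4 groups held 3 mice, which were females aged 3 months, males aged 3 months, females aged 18 months and males aged 18 months. The comparison asked how accessibility at these genes differed between the ages, with sex as a covariate. The labels name whole bone marrow as the tissue, while the protocol text describes a sort of CD3e and CD8 positive T cells. Of 12 T cell marker genes, 10 had a peak within 15 kb and summed to between 398 and 484 CPM per library, among them Lck (131 ± 5.5), Cd3g (126 ± 8.66) and Cd3d (62.5 ± 4.5 CPM at 18 months, SD, n = 6). The peaks of Cd8a held 3.43 ± 0.627 CPM (SD, n = 6) at 18 months, and Cd8b1 and Bcl11b had no peak in reach. The 10 B cell markers summed to between 741 and 937 CPM in the same libraries, and the erythroid and neutrophil markers to over 1000 CPM. CPM is the count of a region scaled to the library total in peaks, after TMM factors.

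Entry into the cell cycle is driven by cyclin-dependent kinases, and the inhibitors described here hold those kinases back. The INK4 proteins (p16, p15, p18 and p19, from Cdkn2a, Cdkn2b, Cdkn2c and Cdkn2d) bind the kinases that pair with D-type cyclins, while p21 and p27, from Cdkn1a and Cdkn1b, bind complexes of several cyclins. Cdkn2a also encodes Arf from a separate first exon. Arf blocks Mdm2, the ligase that degrades p53, and p53 in turn switches on Cdkn1a, Mdm2 and Gadd45a. Rising p16 and p21 RNA are widely used signs of cellular senescence, and in marrow p18, p21 and p27 are known as brakes on the division of stem and progenitor cells.

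The 250 bases before 6 RefSeq start sites of these genes are shown because they set starts that carried a peak beside starts that did not. They come from RefSeq on GRCm38.p6 and are written 5′ to 3′ on the strand of the gene. Capitals mark letters of a searched motif: a p53 response element, the E2F site TTTCCCGC, the CCAAT box CCAAT or the GC box GGGCGG. In all, RefSeq lists 11 start sites for the 8 genes.
Cdkn1a upstream start, chr17:29090729-29090978, plus strand: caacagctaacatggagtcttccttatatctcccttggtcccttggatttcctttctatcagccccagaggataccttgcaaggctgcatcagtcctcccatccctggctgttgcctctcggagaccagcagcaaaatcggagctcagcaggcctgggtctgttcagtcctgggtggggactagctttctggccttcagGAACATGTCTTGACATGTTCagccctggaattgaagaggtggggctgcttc
Cdkn1a main start, chr17:29093519-29093768, plus strand: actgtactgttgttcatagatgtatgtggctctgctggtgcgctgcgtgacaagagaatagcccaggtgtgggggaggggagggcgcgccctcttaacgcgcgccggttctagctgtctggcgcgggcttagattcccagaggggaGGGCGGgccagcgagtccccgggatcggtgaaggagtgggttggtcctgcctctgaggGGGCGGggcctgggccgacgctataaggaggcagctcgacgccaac
Cdkn1b, chr6:134920151-134920400, plus strand: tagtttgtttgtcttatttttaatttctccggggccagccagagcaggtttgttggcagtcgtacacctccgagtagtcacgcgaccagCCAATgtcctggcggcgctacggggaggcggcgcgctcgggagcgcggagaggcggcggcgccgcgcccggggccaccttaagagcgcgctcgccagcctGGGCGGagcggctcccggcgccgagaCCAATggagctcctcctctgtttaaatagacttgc
Cdkn2a p16 start, chr4:89282193-89282442, minus strand: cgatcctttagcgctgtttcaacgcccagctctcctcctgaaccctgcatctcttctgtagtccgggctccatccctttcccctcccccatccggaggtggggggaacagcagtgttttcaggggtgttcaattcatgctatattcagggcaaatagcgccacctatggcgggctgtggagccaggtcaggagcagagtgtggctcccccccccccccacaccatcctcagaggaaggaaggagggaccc
Cdkn2a Arf start, chr4:89294620-89294869, minus strand: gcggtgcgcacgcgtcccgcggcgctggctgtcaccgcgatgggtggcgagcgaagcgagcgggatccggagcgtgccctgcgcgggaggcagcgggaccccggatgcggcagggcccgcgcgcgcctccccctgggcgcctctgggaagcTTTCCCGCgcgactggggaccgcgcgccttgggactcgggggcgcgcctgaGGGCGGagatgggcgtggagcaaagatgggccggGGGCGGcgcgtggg
Cdkn2c upstream start, chr4:109666757-109667006, minus strand: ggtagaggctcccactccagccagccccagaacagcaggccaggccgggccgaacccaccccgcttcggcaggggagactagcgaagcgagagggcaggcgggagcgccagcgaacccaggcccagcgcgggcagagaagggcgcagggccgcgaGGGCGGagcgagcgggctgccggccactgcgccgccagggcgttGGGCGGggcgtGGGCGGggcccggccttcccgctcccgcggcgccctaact

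Motifs were searched on both strands in windows from 250 bases before to 50 bases after each start, and each match is a description of letters only. Among all 32851 such windows, the search for a p53 response element, which allowed more than 1 mismatch, found a match in 262 (0.798%). With at most 1 mismatch, the count of the match found here, it occurred in 29 (0.0883%). Under both limits 1 of the 11 windows here held a match, the same element. That element stands in capitals in the first sequence, spans chr17:29090928-29090947 and has 1 mismatch. The Cdkn1a start beside it had no peak over its window: the closest peak lay 2538 bases downstream of the element, at the main start, and the closest one upstream lay 8645 bases away. The E2F site TTTCCCGC occurred in 1.07% of all windows and, among the members, in the Arf window alone. The other E2F form, TTTGGCGC, the AP-1 site TGANTCA, the GATA site AGATAA and the TATA box TATAAA were in none of the 11 windows. GC boxes were in 9 of the 11 against 35.7% of all windows, and CCAAT boxes in 6 against 37.4%. These shares were not matched for base composition. The share of G and C ran from 44% to 77% in the member windows, with a median of 52.7% over all windows.

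A peak overlapped 9 of the 11 start windows (81.8%), against 54.9% of the windows of all protein-coding genes. The 2 without one were the upstream start of Cdkn1a and the p16 start of Cdkn2a, whose nearest peak edges were 2506 and 3158 bases away. Every one of the 8 genes therefore had a peak over at least 1 start. Per kilobase of peak, the start peak was most accessible at Cdkn2d, with a mean level of 34.3 CPM per kb over the 12 libraries (range 27.2 to 44.1). Gadd45a (24.4, range 18.5 to 34.0), Cdkn1b (21.7, range 16.7 to 28.4), Mdm2 (18.6, range 14.7 to 22.9), Cdkn2c (18.3, range 14 to 27.4) and Cdkn1a (15.5, range 12.3 to 20.2) followed in CPM per kb. Cdkn2b stood at 12.3 CPM per kb (range 10.1 to 15.9), and the Arf start of Cdkn2a was lowest at 7.64 CPM per kb (range 3.69 to 9.51). Each gene's range overlapped that of the next gene in this order except between Cdkn2b and Cdkn2a.

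With age, Cdkn1a gained accessibility while Cdkn1b, Cdkn2c and Gadd45a lost it. In counts summed over all peaks of a gene, Cdkn1a was 19.9% higher at 18 months, Cdkn2c fell by 25.6%, Gadd45a fell by 20.2% and Cdkn1b fell by 18.3%. Cdkn2a and Cdkn2b, the INK4 genes best known from senescence, were among the 4 genes that did not pass the threshold, with Cdkn2d and Mdm2. Thus 4 of 8 genes were called, 1 higher and 3 lower, by edgeR's quasi-likelihood test with a Benjamini-Hochberg adjusted p below 0.05. Of all 16921 genes tested, 41.1% were called, 10.8% higher and 30.3% lower. Among the 38 peaks, 10 were called (26.3%), 2 higher and 8 lower, against 21.0% of all tested peaks, 9.43% higher and 11.6% lower. Without the 18-month female with number 35 the count was 5, and without the 3-month female of sequencing run 31 it was 6, in both cases with 0 higher. Calls over all peaks dropped in the same fits from 15778 to 13242 and 14106. Of all peaks 7.3% and 7.51% were then higher, and 10.3% and 11.3% lower. With every library kept, the median log2 fold change was -0.09 over the 38 peaks and 0.02 over all tested peaks. In bulk libraries, a smaller share of cells in which a region is open cannot be told apart from less accessibility per cell.

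**Figure D1:**
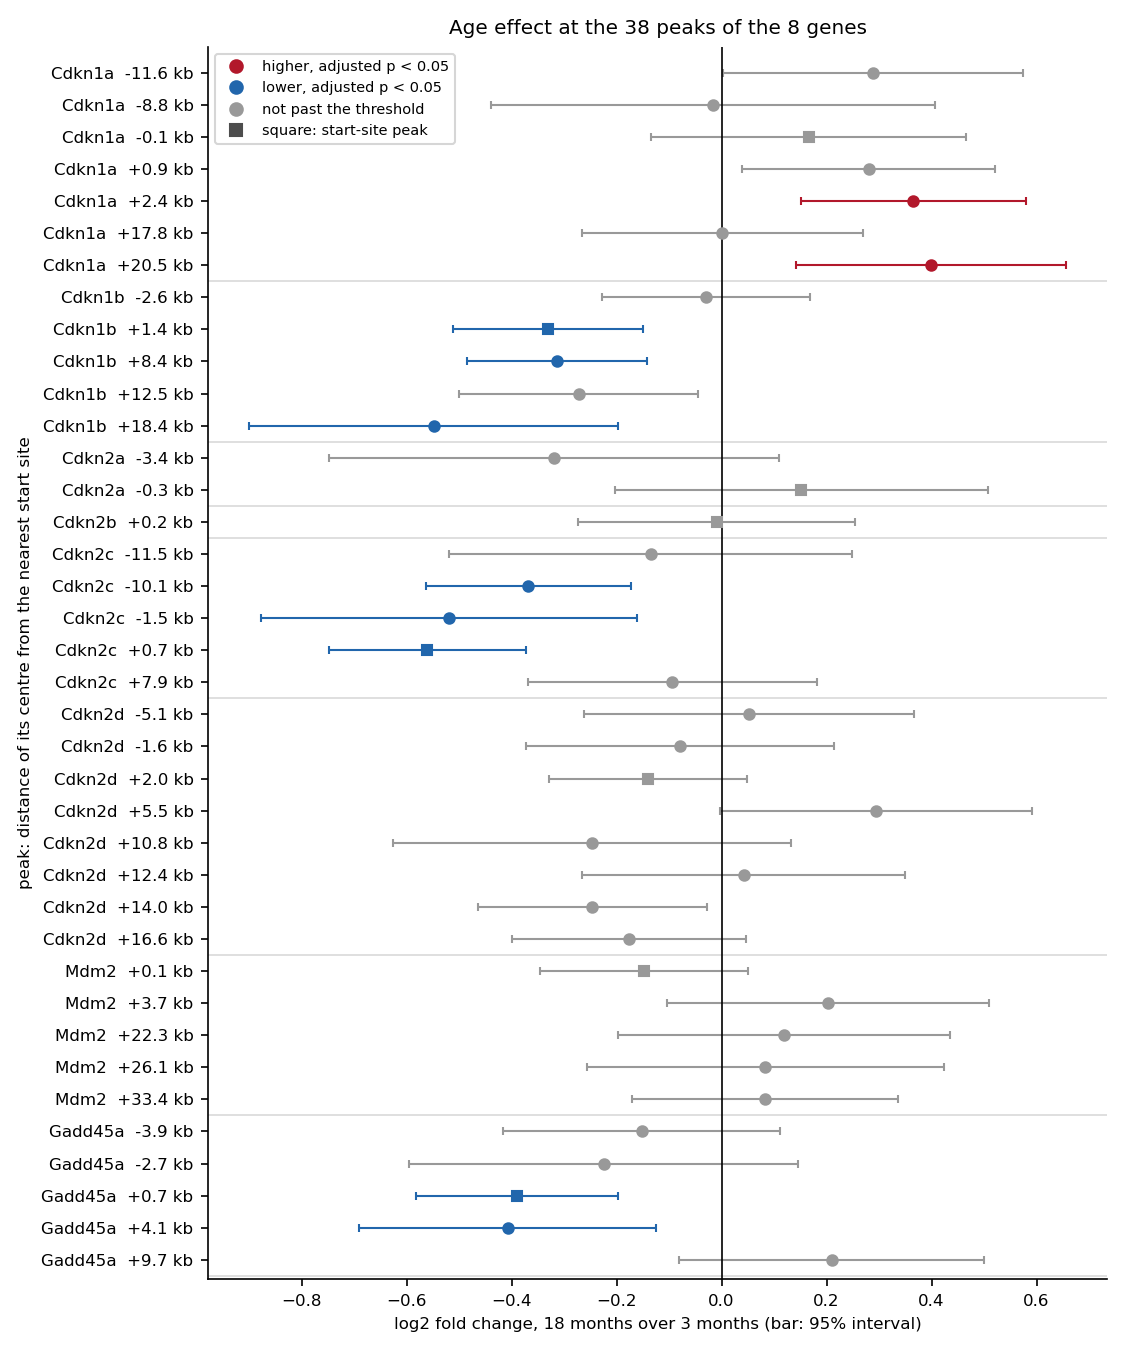
Log2 fold change of accessibility, 18 months over 3 months, at each of the 38 peaks, ordered by gene and by the distance of the peak's centre from the nearest start site in kb. Points are edgeR estimates over 12 libraries with 95% intervals, and squares are start-site peaks. The 2 red peaks are at Cdkn1a, and the 8 blue peaks are at Cdkn1b, Cdkn2c and Gadd45a.

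The direction of change went with the width of the peak across the whole table. Of peaks at least 1000 bp wide, 8.0% were higher and 25.5% lower, whereas of narrower peaks 10.1% were higher and 5.36% lower. Of the 18 wide member peaks 1 was higher and 6 were lower. Of the 20 narrower ones 1 was higher and 2 were lower. Peaks over a start site had a median width of 1517 bp against 706 bp for all peaks, and 32.8% of the 10581 start-site peaks of all RefSeq genes were called, 4.27% higher and 28.5% lower. Among the 8 start-site peaks described per gene here, 3 were lower and 0 higher. When each library was scaled along a curve against peak abundance, the member peaks called became 2 higher and 4 lower, where 9.54% of all peaks were higher and 10.4% lower. Along a curve against peak width they became 2 higher and 3 lower, where 8.43% of all peaks were higher and 9.52% lower. Scaling by total counts gave 3 higher and 6 lower, where 14.9% of all peaks were higher and 8.82% lower. The share of higher calls among all called peaks was 44.9% with TMM, 47.8% and 47% under the curves and 62.8% with total counts. Among all called genes, summed over their peaks, the share moved more, from 26.3% to 50.2%, 49.6% and 48.1%. It was 49.4% with DESeq2, whose size factors were there estimated from the gene sums. With DESeq2 size factors estimated from the peaks and used in edgeR it was 24.2%. Total counts moved the median log2 fold change of all peaks in males from 0.03 to 0.14.

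**Figure D2:**
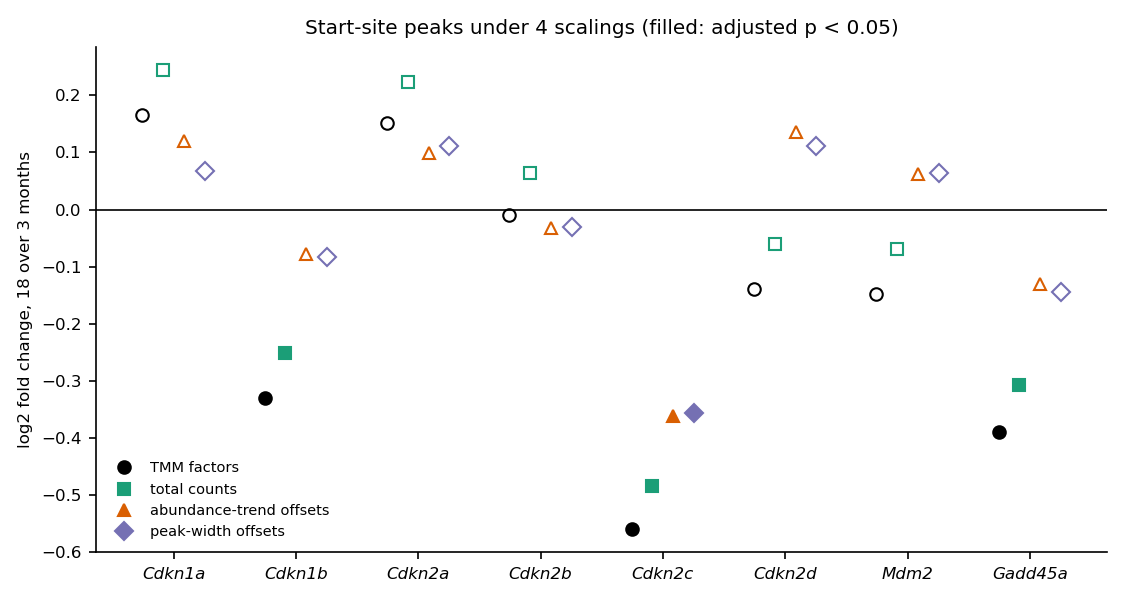
Log2 fold change of the start-site peak of each gene, 18 months over 3 months, under 4 ways of scaling the libraries. Filled symbols passed an adjusted p of 0.05. The Cdkn2c peak stayed lower and past the threshold under all 4, Cdkn1b and Gadd45a passed under TMM and total counts alone, and Cdkn2b, Cdkn2d and Mdm2, none of them called, changed sign.

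The females of 18 months were sequenced in run 14, the males of 18 months in run 15 and the mice of 3 months in runs 28 to 31. Single mice are named by their number in the labels or, at 3 months, by sex and run. No run held both ages, so age cannot be told apart from run and date, and at 18 months sex cannot be told apart from run. The 12 libraries held between 7668099 and 12756647 counts in peaks. Marker genes of other cell types moved with age in the same libraries. All 11 erythroid markers with a peak fell with age, with a median log2 fold change of -0.84, and their summed level was 1195 to 1281 CPM at 18 months against 1906 to 2292 CPM at 3 months, with no overlap. Ahsp, the twelfth erythroid marker, was not found in the gene table. Of 12 neutrophil markers 7 rose and 0 fell, with summed levels of 1338 to 1555 CPM at 18 months and 1102 to 1609 CPM at 3 months. They overlapped only by the 3-month male of run 30, and the other 5 young libraries held 1102 to 1225 CPM. Of 8 monocyte markers 4 rose and 1 fell, of 10 B cell markers 1 rose, of 8 stem and progenitor markers with a peak 1 rose, and of 10 T cell markers with a peak 2 rose and 2 fell. Mecom and Procr, both stem cell markers, had no peak in reach. The summed levels of these 4 lists overlapped between the ages. The B cell sum was 741 to 765 CPM in the males of 18 months, below all other libraries, against 889 to 937 CPM in the females of that age and 805 to 931 CPM at 3 months. The part of these cell types in the results at the 8 genes was not tested.

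Cdkn1a encodes p21, the inhibitor that p53 induces after DNA damage. Its 7 peaks summed to 86.3, 89.6 and 103 CPM (lowest, median, highest) in the 6 libraries of 18 months and to 65.9, 75.6 and 90.7 CPM at 3 months. The ages overlapped only by the highest young library, the male of run 30, which also had the highest neutrophil marker sum. The log2 fold change was 0.26 (SE 0.070, adjusted p = 0.00566, edgeR quasi-likelihood), with 0.31 in females and 0.22 in males. The start-site peak itself (chr17:29093485-29093930) held 7.31 ± 1.02 CPM (SD, n = 6) at 18 months and 6.52 ± 1.03 CPM at 3 months, a log2 difference of 0.17 that did not pass (adjusted p = 0.465).

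The gain at Cdkn1a was called inside the gene and beyond its 3′ end. At chr17:29095342-29097092, centred 2448 bases past the main start and inside Cdkn1a, the levels were 37.7, 30.8 and 29 CPM in the females of 18 months and 29.1, 25.9 and 33.1 CPM in the males. At 3 months they were 27.7, 22.2 and 19.1 CPM in females and 23.7, 26.8 and 24.4 CPM in males. Only the lowest old library, a male, fell within the range of the young ones. The log2 fold change was 0.37 (SE 0.107, adjusted p = 0.0107). At chr17:29113833-29114673, inside the neighbouring gene Rab44, levels were 9.88, 13.3 and 15.3 CPM (lowest, median, highest) at 18 months and 7.82, 9.65 and 12.6 CPM at 3 months, which overlapped, and the log2 fold change was 0.40 (SE 0.128, adjusted p = 0.02). Both calls were lost without 18-month female 35 (0.30 with adjusted p = 0.0564, and 0.37 with adjusted p = 0.0532) and without the 3-month female of run 31 (0.29 with adjusted p = 0.0505, and 0.35 with adjusted p = 0.0555). The second was also lost without the 3-month male of run 31 (0.34, adjusted p = 0.0604). The peak inside Cdkn1a next to its start, at chr17:29094131-29095148, averaged 15.6 ± 2.62 CPM (SD, n = 6) at 18 months and 12.8 ± 0.852 CPM at 3 months and did not pass (0.28, adjusted p = 0.0886). Log2 differences at the other upstream and downstream peaks were 0.29, -0.02 and 0.00, none past the threshold. Summed over peaks within 50 kb instead of 15 kb, the gene was no longer called (0.08, adjusted p = 0.155).

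Cdkn1b encodes p27, which holds resting cells out of the cycle and is removed by the Skp2 and Cks1b ligase complex. Over its 5 peaks the level was 209, 233 and 259 CPM (lowest, median, highest) at 18 months and 269, 286 and 299 CPM at 3 months. Every old library lay below every young one. The log2 fold change was -0.29 (SE 0.0492, adjusted p = 1.1e-04), and it was -0.19 in females and -0.40 in males. It was -0.14 under the abundance curve and -0.14 under the width curve, past the threshold in both. This was the 1 gene of the 8 without overlap between the ages, where 17% of all genes tested showed none.

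The start peak of Cdkn1b, chr6:134919156-134924434, is 5279 bp wide and covers the start and all but the 3′ end of the gene. It held 112, 116 and 107 CPM in females and 95.7, 92.1 and 87.9 CPM in males of 18 months, and 135, 116 and 116 CPM in females and 128, 150 and 121 CPM in males of 3 months. The old males lay below all other libraries, as they did for the B cell marker sum, and the highest old female overlapped only the lowest young one. The log2 fold change was -0.33 (SE 0.0900, adjusted p = 0.00608), with -0.13 in females (adjusted p = 0.500) and -0.53 in males (adjusted p = 0.00113). The next wide peak, chr6:134925877-134931688, downstream of the gene, was at 75.8, 84.8 and 94.3 CPM (lowest, median, highest) at 18 months and 101, 103 and 115 CPM at 3 months, without overlap (-0.31, SE 0.0856, adjusted p = 0.00620). A smaller peak further downstream, chr6:134938496-134939042, averaged 4.40 ± 0.985 CPM (SD, n = 6) at 18 months and 6.50 ± 1.18 CPM at 3 months, with a log2 fold change of -0.55 (adjusted p = 0.0198). That last call was lost without 18-month female 35 (-0.45, adjusted p = 0.0765), without 18-month male 40 (-0.48, adjusted p = 0.0572) or without the 3-month male of run 29 (-0.51, adjusted p = 0.0537). Under the abundance curve, the start peak and the next wide peak moved to -0.08 and -0.08, and under the width curve to -0.08 and -0.07, and neither was called under either curve. The remaining peaks, at chr6:134916694-134918893 and chr6:134932115-134933719, had log2 differences of -0.03 and -0.27 and did not pass.

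**Figure D3:**
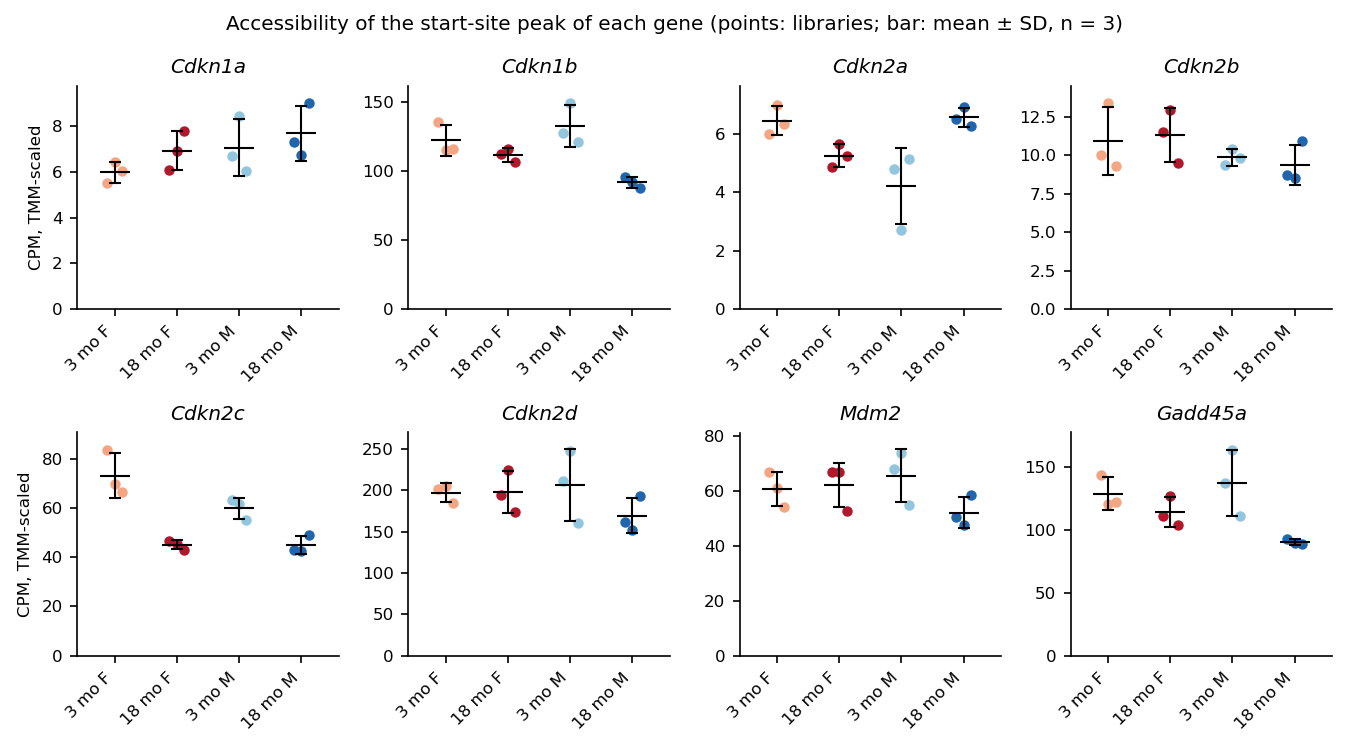
CPM of the start-site peak of each gene in the 12 libraries, by age (3 or 18 months) and sex (F or M). Points are libraries and bars are the mean and SD of 3. The 6 libraries of 18 months lie between 42.7 and 49.3 CPM at Cdkn2c, all below the young ones, while the ages overlap in the other 7 panels.

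Among the INK4 genes, Cdkn2c showed the clearest change. It encodes p18, an inhibitor of Cdk4 and Cdk6. Its start peak, chr4:109664562-109667612, is 3051 bp wide and covers both RefSeq starts. It held 46.6, 45.6 and 43.1 CPM in females and 43.0, 42.7 and 49.3 CPM in males of 18 months, and 83.6, 69.9 and 66.5 CPM in females and 63.3, 61.7 and 55.2 CPM in males of 3 months. All 6 old libraries were below all 6 young ones. The ages did not overlap at 3 of the 38 member peaks, against 7.23% of all tested peaks, in either direction. The log2 fold change was -0.56 (SE 0.0934, adjusted p = 1.09e-05), with -0.70 in females (adjusted p = 5.35e-05) and -0.42 in males (adjusted p = 0.02). It was the only member peak called in each sex on its own. The call in males was lost without 18-month male 38 (-0.39, adjusted p = 0.0992), 18-month male 39 (-0.38, adjusted p = 0.104) or the 3-month male of run 29 (-0.38, adjusted p = 0.0984), and the call in females held without any 1 library. The call over both sexes held under all 8 alternative settings, between -0.57 and -0.36, and without any 1 of the 12 libraries, between -0.61 and -0.50.

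Peaks around Cdkn2c moved the same way. The narrow peak beyond its start, chr4:109667941-109668519, held 3.40, 3.76 and 4.08 CPM (lowest, median, highest) at 18 months and 4.38, 5.45 and 6.33 CPM at 3 months, again without overlap (-0.52, SE 0.178, adjusted p = 0.0305). This peak rests on 29 to 69 counts per library. It lost the call without 18-month females 35 (-0.48) or 36 (-0.51), without the 3-month females of run 31 (-0.48) or run 28 (-0.47), without the 3-month male of run 31 (-0.46), and with total counts (-0.45, adjusted p = 0.0728). A wide peak inside Faf1, chr4:109675873-109677934, averaged 49.4 ± 6.58 CPM (SD, n = 6) at 18 months and 63.5 ± 8.55 CPM at 3 months, with a log2 fold change of -0.37 (adjusted p = 0.00475). It fell short under the abundance curve (-0.16, adjusted p = 0.0983) and the width curve (-0.21, adjusted p = 0.0611). The other Faf1 peak and the peak downstream of Cdkn2c differed by -0.14 and -0.09 and did not pass. Summed over its 5 peaks, Cdkn2c fell from 150 ± 16.6 CPM to 112 ± 7.90 CPM (SD, n = 6), a log2 fold change of -0.43 (SE 0.0596, adjusted p = 1.55e-05) that was equal in both sexes at -0.43.

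Cdkn2a, which encodes p16 and Arf, had 2 peaks, and neither covered the p16 start. Its level over both was 9 ± 1.09 CPM (SD, n = 6) at 18 months and 9.20 ± 1.13 CPM at 3 months, a log2 difference of -0.03 with a 95% interval from -0.29 to 0.23 (adjusted p = 0.857). This interval holds changes of either sign, and the difference turned positive without 18-month female 35 (0.05) and with total counts (0.04). The peak inside the gene closest to the p16 start, chr4:89285350-89285918, held 2.11, 2.98 and 3.99 CPM (lowest, median, highest) at 18 months and 2.74, 3.80 and 5.32 CPM at 3 months. It rested on 22 to 51 counts per library and did not pass (-0.32, 95% interval -0.75 to 0.11). With no peak over it, the p16 start itself was not measured here.

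At the Arf start, the age differences had opposite signs in the sexes, and neither passed the threshold. The peak chr4:89294564-89295299 held 4.86, 5.66 and 5.26 CPM in females of 18 months and 6.02, 7 and 6.34 CPM in females of 3 months. In males it held 6.50, 6.93 and 6.27 CPM at 18 months and 4.80, 2.71 and 5.13 CPM at 3 months. Within each sex the ages did not overlap, with lower levels in old females and higher levels in old males. Among all peaks 31.2% had no overlap in females and 26% had none in males, and 0.556% had none in either sex with opposite directions. The log2 differences were -0.29 in females (adjusted p = 0.445) and 0.63 in males (adjusted p = 0.0741), and over both sexes 0.15 (SE 0.177, adjusted p = 0.588). The difference between the sexes, 0.93 (SE 0.332), did not pass when adjusted over all peaks (adjusted p = 0.335, edgeR quasi-likelihood). The lowest library was the young male of run 30, and without it the log2 difference was 0.40 in males (adjusted p = 0.354), 0.70 between the sexes (adjusted p = 0.717) and 0.00 over both sexes. Without the 3-month male of run 31 the male difference passed (0.81, adjusted p = 0.0284). The peak rests on 26 to 71 counts per library.

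Cdkn2b, the p15 gene next to Cdkn2a, had a single peak over its start, chr4:89310426-89311268. It held 8.53, 10.2 and 13 CPM (lowest, median, highest) at 18 months and 9.29, 9.94 and 13.4 CPM at 3 months. The ages overlapped, and the log2 difference was -0.01 (95% interval -0.27 to 0.25, adjusted p = 0.972). The interval leaves out a change as large as that at the Cdkn2c start, but the sign of the difference varied with the scaling.

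Cdkn2d encodes p19, the INK4 inhibitor with the most accessible start of the 8 genes per kilobase. Its start peak, chr9:21286410-21292022, spans the whole gene and held 153, 184 and 225 CPM (lowest, median, highest) at 18 months and 161, 204 and 247 CPM at 3 months. The ages overlapped, and the log2 difference of -0.14 did not pass (SE 0.0940, adjusted p = 0.306). Without single libraries it ran from -0.20 to -0.06 and never passed. In females it was 0.00 and in males -0.28 (adjusted p = 0.124, edgeR quasi-likelihood). The male value passed without the 3-month male of run 31 (-0.44, adjusted p = 0.00159). Over both sexes the difference was 0.14 under the abundance curve and 0.11 under the width curve, again short of the threshold. Of the other 7 peaks, 6 lay inside Kri1, Atg4d or Ap1m2 rather than Cdkn2d, and none was called over both sexes. Summed over all 8 peaks the log2 difference was -0.12 (adjusted p = 0.127), which passed without 18-month female 36 (-0.16, adjusted p = 0.0439), without the 3-month male of run 31 (-0.17, adjusted p = 0.0256) and with peaks up to 50 kb away (-0.14, adjusted p = 0.0294).

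**Figure D4:**
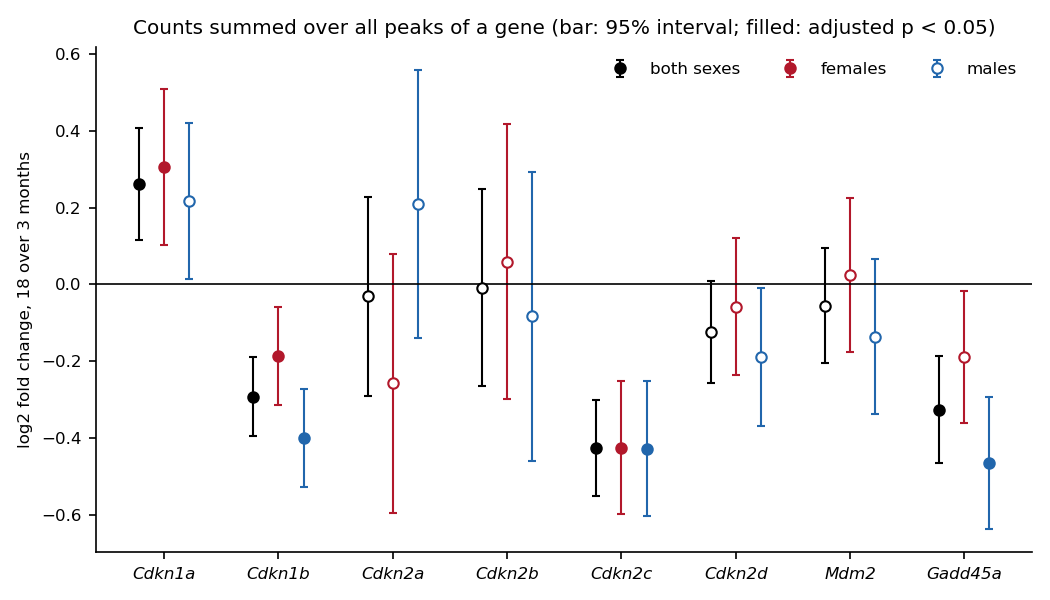
Log2 fold change, 18 months over 3 months, of counts summed over all peaks of each gene, for both sexes together, females and males, with 95% intervals. Filled symbols passed an adjusted p of 0.05. Over both sexes Cdkn1a was higher, Cdkn1b, Cdkn2c and Gadd45a were lower, and the intervals of the other 4 genes include 0.

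Mdm2, which marks p53 for degradation and is itself a p53 target, did not change past the threshold over both sexes. Its start peak, chr10:117709003-117712230, was at 47.4, 55.6 and 66.9 CPM (lowest, median, highest) at 18 months and 54.2, 63.9 and 73.9 CPM at 3 months. These ranges overlapped, with a log2 difference of -0.15 (SE 0.0989, adjusted p = 0.304) that was 0.06 under the abundance and width curves. The other 4 peaks, 2 of them inside the neighbouring carboxypeptidase gene Cpm, differed by 0.08 to 0.20. Over all 5 peaks the log2 difference was -0.05 (95% interval -0.20 to 0.09, adjusted p = 0.563).

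Gadd45a, a p53 target that acts in growth arrest and the stress response, was less accessible at its start over both sexes, and within a sex the decrease was called in males. The peak chr6:67034290-67039110 covers the gene and held 111, 127 and 104 CPM in females and 92.7, 89.5 and 89.1 CPM in males of 18 months. At 3 months it held 144, 120 and 122 CPM in females and 138, 164 and 111 CPM in males. The old males were below all young libraries, and the old females overlapped the young range. The log2 fold change was -0.39 (SE 0.0956, adjusted p = 0.00237), with -0.18 in females (adjusted p = 0.370) and -0.60 in males (adjusted p = 4.2e-04). The female value was -0.10 without the 3-month female of run 28 and -0.27 without 18-month female 36. The difference between the sexes did not pass (-0.43, adjusted p = 0.388), but did without the 3-month male of run 31 (-0.56, adjusted p = 0.0269). It was -0.13 under the abundance curve (adjusted p = 0.110) and -0.14 under the width curve (adjusted p = 0.153), so the call depended on that scaling. Downstream, chr6:67032503-67034026 averaged 9.34 ± 2.37 CPM (SD, n = 6) at 18 months and 12.2 ± 1.86 CPM at 3 months, with a log2 fold change of -0.41 (adjusted p = 0.0324). That call was lost in 8 of the 12 fits that left out 1 library: 18-month females 35 (-0.34) and 36 (-0.37), 18-month male 39 (-0.35), the 3-month females of runs 29 (-0.39), 31 (-0.36) and 28 (-0.40), and the 3-month males of runs 29 (-0.39) and 31 (-0.40). It was also lost under the width curve (-0.32, adjusted p = 0.133) and with total counts (-0.33, adjusted p = 0.0883). Summed over 5 peaks, Gadd45a had a log2 fold change of -0.33 (SE 0.0667, adjusted p = 7.3e-04), which was -0.20 under the abundance curve and -0.22 under the width curve and still called. The level was 170 ± 15.2 CPM at 3 months against 135 ± 13.3 CPM at 18 months (SD, n = 6).

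Within each sex, 4 member peaks were called in females (1 higher, 3 lower) against 11.9% of all peaks, 5.7% higher and 6.2% lower. In males 6 were called (1 higher, 5 lower) against 11.4% of all peaks, 3.21% higher and 8.18% lower. In females the called peaks were the one inside Cdkn1a, which was higher, and the Cdkn2c start, the Gadd45a downstream peak and a peak inside Kri1 near Cdkn2d, chr9:21276019-21278425, which were lower. In males the Cdkn1b start and its wide downstream neighbour, the Cdkn2c start, the wide Faf1 peak and the Gadd45a start were lower, and a second Kri1 peak near Cdkn2d, chr9:21285300-21286177, was higher. The male calls became 1 higher and 0 lower under the abundance curve, where 3.18% of all peaks were higher and 4.71% lower. They became 0 higher and 1 lower under the width curve, with 2.92% of all peaks higher and 4.88% lower. With total counts they were 4 higher and 3 lower, with 6.11% of all peaks higher and 5.45% lower. Without 18-month female 35 or the 3-month female of run 31 the female calls dropped to 1, and without 18-month female 36 to 2. The calls over all peaks dropped in the same fits from 8943 to 5015, 5040 and 4743. Without 18-month males 38 or 39 the male calls dropped to 3, and without the 3-month male of run 29 to 2, while those over all peaks dropped from 8557 to 5325, 4878 and 4506. No age effect was shown to differ between the sexes: 0 of 38 peaks were called for the interaction, where 0.00532% of all peaks were called. An unadjusted p under 0.05 was found at 6 of the 38 and at 9.99% of all peaks (edgeR quasi-likelihood). Without the 3-month male of run 31 the count called was 1, the Gadd45a start, and in that fit 1619 of all 75162 peaks were called for the interaction, 236 higher and 1383 lower. The 6 with an unadjusted p under 0.05 were the start peaks of Cdkn1b (-0.40), Cdkn2a (0.93), Mdm2 (-0.37) and Gadd45a (-0.43) and the 2 Kri1 peaks just named (0.43 and 0.61), given as male minus female log2 fold change. Sex itself was called at 0 of 38 peaks and at 0.162% of all peaks, and had an unadjusted p under 0.05 at 2 of the 38 and at 7.57% of all peaks (edgeR quasi-likelihood). Without the 3-month male of run 30 the sex calls over all peaks rose from 122 to 567, and those at the members stayed at 0.

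Genes that act with the inhibitors were taken from lists and counted in the same fit of summed peaks. Of 26 genes of the CDK and RB pathway (kinases, cyclins, RB proteins, E2F factors, the p27 ligase pair Skp2 and Cks1b, and the further inhibitor genes Cdkn1c and Cdkn3), 15 fell, 2 rose and 9 did not pass, with a median log2 fold change of -0.19. Over all genes tested 30.3% fell and 10.8% rose, and the median was -0.07. All 26 had a peak. Of 8 E2F family members, of which some but not all are restrained by RB proteins, 5 fell, led by E2f4 (-0.50, adjusted p = 1.37e-07) and E2f1 (-0.37, adjusted p = 4.47e-06). Of 7 cyclins 5 fell, led by the S-phase cyclin Ccne2 (-0.58, adjusted p = 6.53e-07), and 1 rose, Ccnd2 (0.18, adjusted p = 0.0138). Cdk4, the partner of D-type cyclins that the INK4 proteins bind, rose by 0.18 (adjusted p = 0.00324), from 138 ± 5.04 to 157 ± 6.37 CPM (SD, n = 6) without overlap. Skp2 and Cks1b, which remove p27, both fell, by 0.21 and 0.17 on the log2 scale. Cdkn3 fell (-0.32, adjusted p = 0.0387), and Cdkn1c did not pass (-0.03).

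Of the 25 tested regulators and targets of p53, 11 fell, 5 rose and 9 did not pass, where 30.3% of all genes fell and 10.8% rose, and the median was -0.15. The lowest p-values among those that fell belonged to Sesn1 (-0.40, adjusted p = 3.84e-06), a stress-induced regulator of growth, Ppm1d (-0.42, adjusted p = 5.27e-06), a phosphatase that shuts the response off, and Trp53 itself (-0.35, adjusted p = 8.72e-06). Those that rose were led by Gadd45b (0.20, adjusted p = 0.00151) and the death receptors Tnfrsf10b (0.41, adjusted p = 0.00207) and Fas (0.47, adjusted p = 0.00250). Of 11 Polycomb and related regulators of the INK4 locus, 5 fell, 0 rose and 6 did not pass, with a median of -0.14, again beside 30.3% lower and 10.8% higher over all genes. Ezh2, the methyltransferase of the complex, had the lowest p (-0.41, adjusted p = 3.75e-05), followed by Rnf2 (-0.34) and Suz12 (-0.30). Of 9 tested genes used as other senescence markers, Plaur (0.38, adjusted p = 0.00139) and Igfbp7 (0.21, adjusted p = 0.0431) rose, Hmga1 (-0.24), Dpp4 (-0.28) and Hmgb2 (-0.24) fell, and 4 did not pass. Eda2r and Igfbp3 had no tested peak. Over the 4 lists the calls were 9 higher and 34 lower, and they became 18 and 23 under the abundance curve, where 20% of all genes were higher and 19.8% lower. They were 17 and 23 under the width curve (20.3% and 20.6% of all genes), 16 and 27 with DESeq2 (21.3% and 21.8%), and 13 and 27 with total counts (20.2% and 21.9%).

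**Figure D5:**
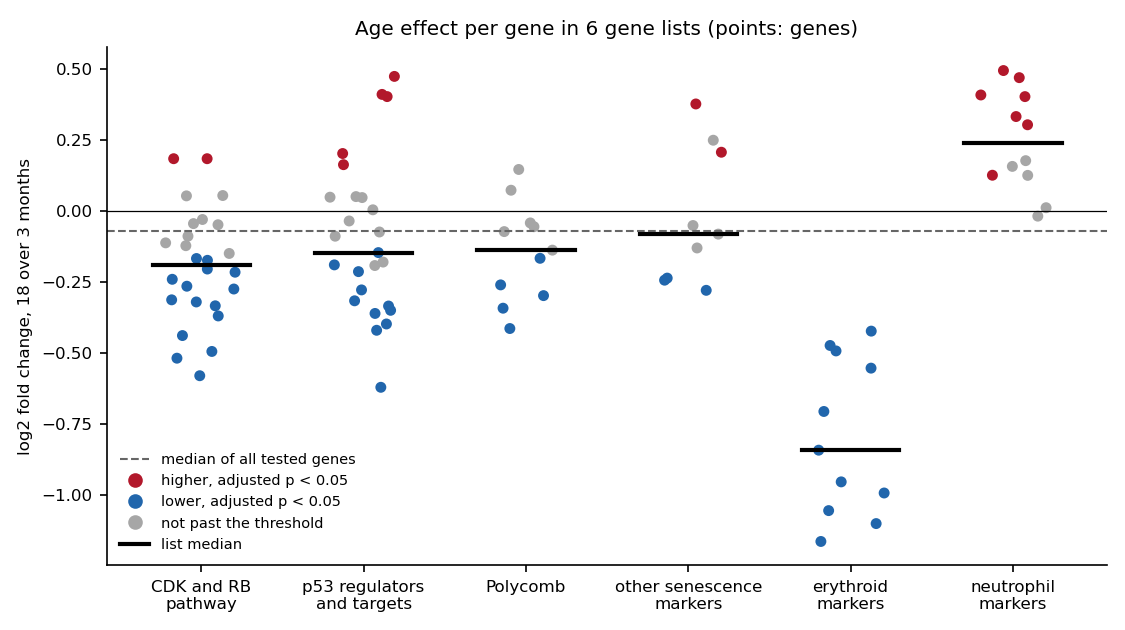
Log2 fold change, 18 months over 3 months, of each gene in 6 lists, from counts summed over its peaks. Points are genes coloured by call, thick bars are list medians, and the dashed line is the median of all tested genes. The list medians run from -0.84 for erythroid markers through -0.19 for the CDK and RB pathway to 0.24 for neutrophil markers.

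For each member gene called with age, the 2 genes on other chromosomes whose profile over the 12 libraries was closest were found by the root mean square difference of centred log2 CPM. Nearest to Cdkn1a were Creb3l1 (0.06) and Nlrp6 (0.06), and nearest to Cdkn1b were Zbtb8os (0.04) and Mppe1 (0.04). Cdkn2c was closest to Zfp282 (0.04) and Tsc22d2 (0.05), and Gadd45a to Krtcap3 (0.04) and Armc6 (0.04). Each pair was the closest among 9115 to 9319 candidate genes, so small distances follow from the choice. The members' own centred values spanned, from lowest to highest, 0.65 for Cdkn1a, 0.52 for Cdkn1b, 0.79 for Cdkn2c and 0.70 for Gadd45a. Such a span is a wider measure than a root mean square difference. Depth and run are shared by all genes of a library, so likeness over 12 libraries is a description.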

How the data were processed

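The deposited values are counts of reads, made by the authors, over 75281 consensus peaks of 12 ATAC-seq libraries. The counts are whole numbers with a smallest value of 1, which compresses changes of the lowest peaks. Per the submitters' processing notes, the tools were Trimmomatic, BWA, MACS2, DiffBind and edgeR on mm10; the consensus rule, removal of duplicates and shift of read ends are not given in the sources used here. Groups, sexes and mouse numbers came from the sample labels. Genes and start sites came from RefSeq on GRCm38.p6, the assembly behind mm10, and 145 of 146 listed genes were found.

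The fit kept 75164 peaks that exceeded 1 CPM in 2 or more libraries. It used TMM scaling and the quasi-likelihood test of edgeR 4.0.16 in R 4.3.3, with terms for age and sex over all 12 libraries. Sexes apart and the interaction came from a model with 1 mean per group. Gene values are counts summed over peaks within 15 kb, fitted for all 16921 genes, so overlapping neighbours share peaks. Benjamini-Hochberg adjustment ran over all features, with a threshold of 0.05. The fit was checked on simulated data. Intervals are 95%. Replicate pairs differed by a chi-square of 2.17 to 6.08 per degree of freedom, so no library was a duplicate.

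Alternatives were DESeq2 1.42.0, its size factors, total counts, loess curves against abundance (span 0.3) and against peak width, filters, windows of 5 and 50 kb, the nearest gene only, no sex term and leaving out each library. The width curve was chosen after seeing the data. The 8 genes, the lists and the tests were chosen with earlier results of these data known. Named peaks are each gene's start-site peak (over 250 bases before to 50 after a RefSeq start) and up to 3 called peaks, and named list genes are up to 3 per direction with the lowest p. Other names were chosen after their values were seen.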

Additional observations from a re-analysis of the deposited data

Results flagged for a closer look

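Single libraries stood apart from the other 5 of their age in 7 of 92 sets of 6 values, by a gap to the nearest library that was large for the range, where chance alone gives about 1 in 20. At the Cdkn2b peak, which is also the gene's sum, the 3-month female of run 29 was highest at 13.4 CPM, against 9.29 to 10.4 CPM in the others. The 3-month male of run 30 was lowest at the Cdkn2c peak starting at 109677957 (2.5 CPM, others 4.18 to 5.07), the Cdkn2d peak starting at 21280164 (3.34 CPM, others 4.96 to 5.87) and the Gadd45a peak starting at 67032503 (8.66 CPM, others 11.9 to 13.6). The same female of run 29 was lowest at the Cdkn2d peak starting at 21278428 (4.85 CPM, others 6.47 to 7.25). At 18 months, female 35 was lowest for the Cdkn2a sum at 6.96 CPM, against 8.97 to 10.1 CPM.

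At the Arf start peak of Cdkn2a and in the gene's sum, the age effect had opposite signs in males and females, while the log2 differences at the other Cdkn2a peak were -0.45 in males and -0.20 in females. The difference, males minus females, was 0.93 on the log2 scale at the Arf start peak (adjusted p = 0.335) and 0.47 for the gene's sum (adjusted p = 0.347), neither past the threshold in edgeR's quasi-likelihood test.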

How the results depend on the processing

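No paired analysis was possible because mouse numbers are not shared between groups. Age, run and date cannot be told apart, and low counts per library limit what can be seen at Cdkn2a. The count of member peaks called with age was 10 and became 6 under the abundance curve and 5 under the width curve. Over all peaks the calls went from 15778 to 14990 and 13491. Within 50 kb 16 of 93 peaks were called, where 21.0% of all tested peaks were. Without single libraries the count was 5 to 12. It was 5 without 18-month female 35 and 6 without the 3-month female of run 31, both with 0 higher. Calls over all peaks dropped to 13242 and 14106 in those 2 fits. In males the count of 6 became 1 under the abundance curve, 1 under the width curve and 3 with male libraries alone. Leaving out libraries gave 1 to 5 in females, 2 to 9 in males, 0 to 1 for the interaction (1 without the 3-month male of run 31), 0 to 0 for sex, 4 to 5 for member genes and 36 to 47 for the lists. Signs changed for uncalled values. With DESeq2 the log2 difference was 0.049 for Cdkn2a, 0.068 for Cdkn2b and 0.027 for Mdm2, and with total counts 0.044, 0.064 (gene and start peak) and 0.023. Cdkn2b was also 0.044 at 50 kb and 4.9e-04 (gene) and 5.4e-05 (start peak) without the sex term. Under the abundance curve the gene and start peak were 0.030 and 0.14 for Cdkn2d and 0.048 and 0.063 for Mdm2, and under the width curve 0.015 and 0.11 for Cdkn2d and 0.042 and 0.064 for Mdm2. Without single libraries, the range was -0.079 to 0.052 for Cdkn2a and -0.071 to 0.057 for the gene and -0.071 to 0.056 for the start peak of Cdkn2b. Of 484 single values in 23 results, 419 kept direction and side of the threshold, 33 lost the call, 3 gained it and 29 changed sign.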
